A study of Mus musculus with 37 samples.

Results

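Transcripts of 10 genes that carry cytokine signals in the injured heart were followed through 3 experiments. The genes were taken by name. They are the ligands Il1b, Il33, Il6, Il11, Lif, Tnf and Csf1, the decoy ligand Il1rn and the receptors Il1r1 and Il1rl1, 10 of 46295 gene names in all tables together. In cardiac fibroblasts (CFs) 10 of the 30892 genes in the table were members, and 8 had enough reads to be tested, all but Il1b and Tnf. In neonatal rat ventricular myocytes (NRVMs) 9 were found among 20158 genes and 6 were tested. Il1b, Il6 and Il11 were too low there, and Tnf was not analysed here. In the single-cell tables all 10 were among 31053 genes.

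The CFs were 1 line of immortalized cardiac fibroblasts from C57BL/6 mice. After serum-free culture they were given medium conditioned by NRVMs that had been treated with vehicle, recombinant ENPP1, ATP, ENPP1+ATP or AMP, and were harvested after 24 or 48 h, with 2 libraries for each medium and time. ENPP1 is an ectoenzyme that hydrolyses extracellular ATP to AMP. NRVMs, prepared from Sprague-Dawley rat pups, received the same 5 treatments for 24 h, with 3 libraries each. Nonmyocytes of injured mouse hearts were profiled 7 days after injury as 1 library from ENPP1CKO animals, in which tamoxifen-induced Col1a2-CreERT deletes a floxed Enpp1 in cells that use the Col1a2 promoter, and 1 library from control littermates labelled as wild type. How many hearts went into each of these libraries was not given in the sources used here. Nothing in the labels says that libraries of a group came from separate cultures, so p-values measure only the spread between these libraries.

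IL-1β signals through the IL-1 receptor encoded by Il1r1, and the receptor antagonist encoded by Il1rn occupies that receptor without signalling. IL-33 is an alarmin released from damaged stromal cells, and Il1rl1 encodes its receptor ST2, of which a soluble form captures the ligand. IL-6, IL-11 and LIF share the signalling subunit gp130 and act through STAT3, while TNF acts through NF-kB. M-CSF, the product of Csf1, keeps macrophages alive and growing.

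Total counts ranged from 32184799 to 115824659 per CF library (median 43133824.5) and from 13481389 to 16977980 per NRVM library (median 14937081). In CFs the 9 fibroblast markers summed to 6871 to 7219 CPM (counts scaled to a common library size) with vehicle at 24 h. Of the macrophage markers, Adgre1 was at no more than 0.06 CPM and C1qa, C1qb and C1qc at no more than 0.17 CPM in any library. Csf1r, another macrophage marker, averaged 0.854 CPM with vehicle, 5.91 with ENPP1+ATP and 8.79 with AMP at 24 h. The fibroblast sum was 3374 to 3483 CPM with ENPP1+ATP and 2642 to 2852 CPM with AMP at that time, and that of the 9 genes of the macrophage list went from 7.61 to 7.83 CPM with vehicle to 26.2 to 30.8 CPM and 48.7 to 49.95 CPM. With ATP the fibroblast sum at 24 h was 4957 to 5251 CPM. At 48 h the macrophage sum was 10.0 to 11.1 CPM with vehicle, 60.2 to 69.5 CPM with ENPP1+ATP and 65.5 to 75.5 CPM with AMP, and that of smooth muscle cell or pericyte markers 127 to 132, 351 to 363 and 395 to 421 CPM. With ATP these sums were 10.9 to 14.2 and 142 to 161 CPM. The fibroblast sum was then 6744 to 7120 CPM with vehicle and 6523 to 6574 with ATP. Monocyte markers summed to 58.9 to 65.7 CPM with vehicle and 118 to 122 with ATP. They summed to 141 to 147 CPM with ENPP1+ATP and 135 to 167 with AMP. Lymphatic endothelial markers summed to 126 to 128 CPM with vehicle and 203.3 to 203.4 with ATP. They were at 255 to 272 CPM with ENPP1+ATP and 251 to 268 with AMP. NRVM cultures held transcripts of other cells, with a fibroblast sum of 24761 to 26149 CPM beside a cardiomyocyte sum of 29578 to 31525 CPM with vehicle. The fibroblast sum there was 10381 to 11714 CPM with ATP, 8287 to 8752 CPM with ENPP1+ATP and 11535 to 12313 CPM with AMP, and the macrophage sum went from 40.9 to 63.5 CPM with vehicle to 70.6 to 95.6, 69.4 to 78.8 and 87.9 to 151 CPM. Fibroblast genes did not all follow the sum. In CFs at 24 h Col1a1 was at 3897 to 4140 CPM with vehicle, 2245 to 2336 with ENPP1+ATP and 1942 to 2093 with AMP. In the same order Pdgfra was at 22.6 to 27.9, 5.34 to 5.68 and 3.3 to 3.5 CPM. Dcn went the other way, at 12.8 to 13.3, 18.9 to 19.4 and 16.7 to 17.2 CPM. In NRVMs Dcn was at 55.6 to 68.8 CPM with vehicle, 62.4 to 70.4 with ENPP1+ATP and 69.1 to 74.6 with AMP. With ATP it was at 41.05 to 56.99 CPM. In bulk libraries fewer cells of a type, less RNA per cell and changes in single genes cannot be told apart. The part of these shifts in the results below was not tested.

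The starts of 3 of the members that moved with the media in CFs are shown. Lif and Csf1 moved in the same direction in 3 media and Il6 in opposite directions. Il1r1 and Il33 also moved and their starts are not shown. The Il33 windows held no match of the kind marked below, and Il1r1 held a match at a second start only. The sequences are the 250 bases before the RefSeq start site in the mouse build GRCm38.p6, read 5′ to 3′ on the strand of the gene, with matches to the AP-1 motif TGANTCA or to the NF-kB consensus in capitals. The windows are chr11:4257318-4257567 on the plus strand for Lif, chr3:107760470-107760719 on the minus strand for Csf1 and chr5:30012864-30013113 on the plus strand for Il6.
Lif: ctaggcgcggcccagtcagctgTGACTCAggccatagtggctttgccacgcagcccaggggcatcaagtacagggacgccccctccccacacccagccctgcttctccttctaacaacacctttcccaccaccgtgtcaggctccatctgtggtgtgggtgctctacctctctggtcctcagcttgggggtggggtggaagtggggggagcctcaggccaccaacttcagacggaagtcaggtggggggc
Csf1: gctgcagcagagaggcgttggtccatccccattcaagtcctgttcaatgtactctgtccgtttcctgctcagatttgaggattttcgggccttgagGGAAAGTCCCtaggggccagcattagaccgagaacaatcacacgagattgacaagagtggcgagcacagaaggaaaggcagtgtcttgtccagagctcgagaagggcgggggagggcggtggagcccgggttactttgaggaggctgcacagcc
Il6: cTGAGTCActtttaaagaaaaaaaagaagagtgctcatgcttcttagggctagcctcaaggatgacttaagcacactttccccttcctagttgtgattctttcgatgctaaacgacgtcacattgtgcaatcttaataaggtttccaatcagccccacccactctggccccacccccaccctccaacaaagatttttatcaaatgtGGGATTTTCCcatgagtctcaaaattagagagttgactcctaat

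The Lif window held an AP-1 match 228 to 222 bases before the start, the Csf1 window an NF-kB match 154 to 145 bases before it, and the Il6 window an AP-1 match at 249 to 243 and an NF-kB match at 44 to 35 bases. Among 32851 promoter windows of the same length, searched on both strands, 6.75% held AP-1 and 3.9% held NF-kB. Further matches were AP-1 in a window of Il1rn (141 to 135 bases) and in that of a second start of Il11 (98 to 92 bases), and NF-kB at a second start of Il1r1 (232 to 223 bases). No member window held the cyclic AMP response element TGACGTCA, which was in 1.55% of windows, or the STAT letters TTCNNNGAA, which were in 7.02%. A match describes letters and not binding.

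On the same build the genes for both receptors lie close together on chromosome 1, Il1r1 at chr1:40222480-40316201 and Il1rl1 at chr1:40404864-40465418, both on the plus strand. Il1rn (chr2:24336860-24351491, plus strand) and Il1b (chr2:129364569-129371164, minus strand) lie on chromosome 2. Il33 is at chr19:29925113-29960718 (plus), Il6 at chr5:30013114-30019975 (plus), Il11 at chr7:4772373-4782907 (minus), Lif at chr11:4257568-4272514 (plus), Tnf at chr17:35199367-35202007 (minus) and Csf1 at chr3:107741048-107760469 (minus).

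Lif rose in CFs in each medium from NRVMs that had been given a nucleotide. At 24 h its level was 8.78 and 9.99 CPM in the vehicle libraries, 16.7 and 17.1 with ATP, 22.8 and 24.4 with ENPP1+ATP and 34.0 and 39.5 with AMP. None of the 3 groups overlapped vehicle. The rise was 1.82-fold with ATP (log2 fold change 0.86, SE 0.14, adjusted p = 0.000232), 2.54-fold with ENPP1+ATP (1.34, SE 0.14, adjusted p = 5.85e-08) and 3.96-fold with AMP (1.99, SE 0.14, adjusted p = 8.99e-11). At 48 h the vehicle libraries had 6.61 and 9.09 CPM, those with ATP 17.4 and 15.2, those with ENPP1+ATP 29.2 and 31.0 and those with AMP 30.1 and 34.5. The groups were again apart from vehicle, at 2.09-fold (adjusted p = 4.19e-05), 3.85-fold (adjusted p = 3.75e-10) and 4.13-fold (adjusted p = 1.53e-10) higher. These calls held without any 1 library.

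Csf1 had a smaller rise of the same kind. At 24 h it was at 890 and 918 CPM with vehicle, 1043 and 1026 with ATP, 1023 and 1090 with ENPP1+ATP and 1156 and 1296 with AMP. Each medium lay above vehicle, by 1.17-fold with ENPP1+ATP (log2 fold change 0.22, SE 0.052, adjusted p = 0.0008) and 1.36-fold with AMP (0.44, adjusted p = 9.92e-08). With ATP the change was 0.19 (adjusted p = 0.0141), a call lost without ATP replicate 1 (0.18, adjusted p = 0.11), vehicle replicate 1 (0.17, adjusted p = 0.17) or vehicle replicate 2 (0.22, adjusted p = 0.051). At 48 h vehicle was at 784 and 782 CPM against 993 and 963 with ATP, 1229 and 1313 with ENPP1+ATP and 1322 and 1331 with AMP. The rises were then 1.25-fold (adjusted p = 0.000157), 1.62-fold (adjusted p = 4.88e-11) and 1.69-fold (adjusted p = 9.91e-12).

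**Figure D1:**
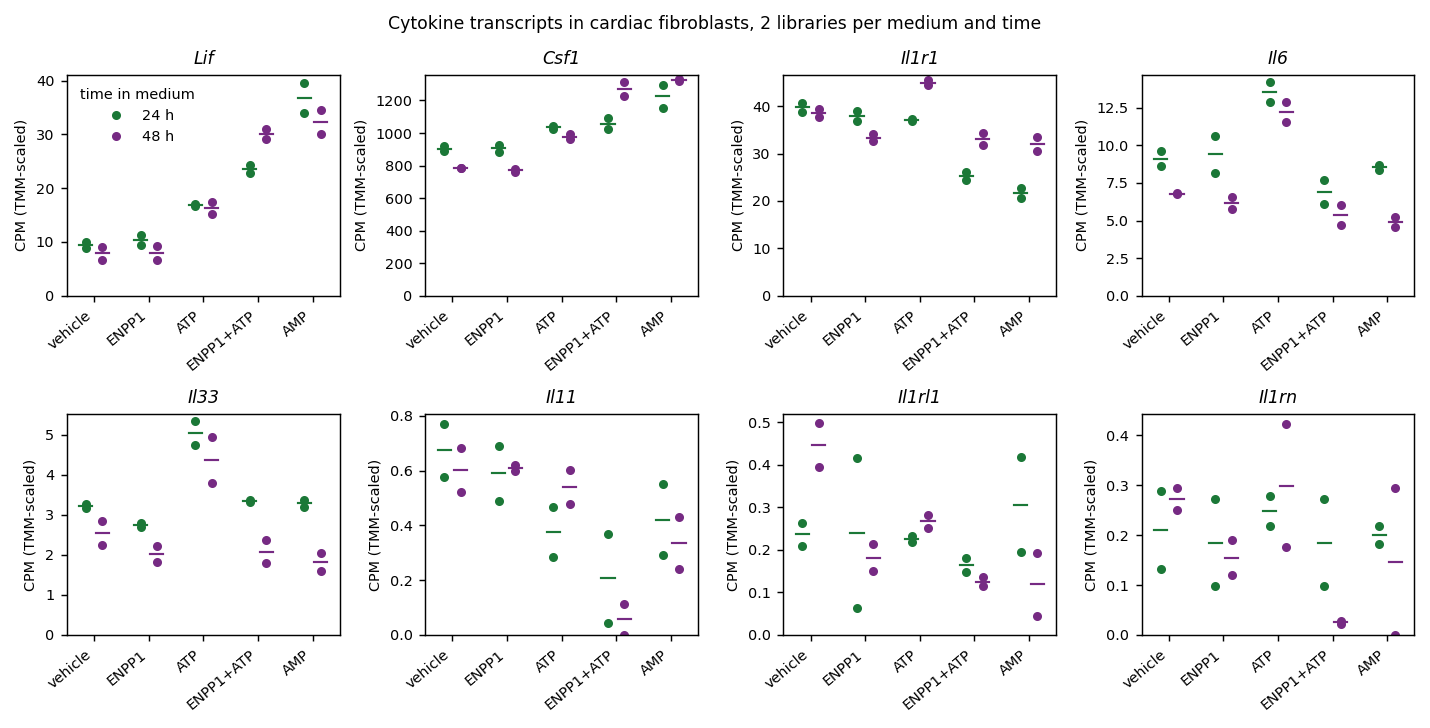
Level of the 8 tested members in CFs by conditioning medium, in CPM scaled by TMM on a linear axis from 0; points are the 2 libraries of each medium at 24 h (green) and 48 h (purple) and lines their means. Lif climbed from vehicle through ATP and ENPP1+ATP to AMP, and Il6 and Il33 were highest with ATP.

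Il6 moved in opposite directions in different media, higher with ATP at both times and lower with ENPP1+ATP at 24 h and with AMP at 48 h. Its level at 24 h was 8.64 and 9.61 CPM with vehicle, 14.2 and 12.9 with ATP, 6.07 and 7.72 with ENPP1+ATP and 8.37 and 8.72 with AMP. ATP libraries were the highest and ENPP1+ATP libraries the lowest, while those with AMP overlapped vehicle. Il6 rose with ATP (log2 fold change 0.58, SE 0.14, adjusted p = 0.00627) and fell by 0.40 with ENPP1+ATP (SE 0.14, adjusted p = 0.0259), and with AMP its change was -0.09 (adjusted p = 0.634). The fall was lost without ENPP1+ATP replicate 1 (-0.23, adjusted p = 0.32) or vehicle replicate 2 (-0.33, adjusted p = 0.15), and the rise without ATP replicate 1 (0.50, adjusted p = 0.099) or vehicle replicate 1 (0.50, adjusted p = 0.13).

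At 48 h Il6 was at 6.78 and 6.80 CPM with vehicle, 11.5 and 12.9 with ATP, 4.70 and 6.01 with ENPP1+ATP and 5.22 and 4.59 with AMP. The 2 ATP libraries lay above vehicle and the other 4 below it. The rise with ATP was 1.80-fold (0.84, adjusted p = 0.000264) and held without any 1 library. With AMP it fell by 0.47 (adjusted p = 0.0145), a call lost without AMP replicate 2 (-0.38, adjusted p = 0.13), vehicle replicate 1 (adjusted p = 0.063) or vehicle replicate 2 (adjusted p = 0.056). With ENPP1+ATP the change was -0.35 (adjusted p = 0.0682), which passed without ENPP1+ATP replicate 2 (-0.53, adjusted p = 0.022).

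The fibrosis-linked cytokine Il11 had few reads. At 24 h there were 66 and 32 counts in the vehicle libraries, 13 and 20 with ATP, 15 and 2 with ENPP1+ATP and 12 and 42 with AMP. At 48 h the counts were 37 and 25 with vehicle, 30 and 19 with ATP, 5 and 0 with ENPP1+ATP and 10 and 19 with AMP. Scaled for depth, the libraries with ENPP1+ATP lay below vehicle at both times. Il11 fell by 1.70 at 24 h (SE 0.66, adjusted p = 0.0361) and by 3.24 at 48 h (SE 0.81, adjusted p = 0.00194) with ENPP1+ATP, and with AMP the changes were -0.61 and -0.84 without passing. The 24 h call was lost without ENPP1+ATP replicate 2 (-0.84, adjusted p = 0.36), vehicle replicate 1 (-1.91, adjusted p = 0.060) or vehicle replicate 2 (-1.50, adjusted p = 0.13), and without ENPP1+ATP replicate 1 the value was -3.80. At 48 h the call held in each such fit, with values from -2.36 without ENPP1+ATP replicate 2 to -7.88 without replicate 1, when the library left had 0 counts and the fitted size is no bound.

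Il33 rose with ATP at both times, and its changes with ENPP1+ATP and AMP did not pass. At 24 h it was at 3.18 and 3.27 CPM with vehicle, 4.75 and 5.33 with ATP, 3.38 and 3.30 with ENPP1+ATP and 3.36 and 3.20 with AMP. At 48 h it was at 2.84 and 2.25 CPM with vehicle, 3.80 and 4.95 with ATP, 2.36 and 1.79 with ENPP1+ATP and 2.04 and 1.60 with AMP. ATP libraries did not overlap vehicle at either time. The rise with ATP was 0.65 at 24 h (SE 0.20, adjusted p = 0.034) and 0.78 at 48 h (SE 0.20, adjusted p = 0.0165), against 0.05 and -0.29 with ENPP1+ATP and 0.03 (adjusted p = 0.929) and -0.48 (adjusted p = 0.0758) with AMP. The 24 h rise was lost without each of its 4 libraries in turn, with adjusted p of 0.093 without ATP replicate 1, 0.22 without ATP replicate 2, 0.23 without vehicle replicate 1 and 0.14 without vehicle replicate 2. The 48 h rise was lost without ATP replicate 2 (0.58, adjusted p = 0.26) or vehicle replicate 2 (0.62, adjusted p = 0.24), and when only the 48 h libraries were fitted (adjusted p = 0.080).

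Il1r1, the signalling receptor for IL-1, fell with ENPP1+ATP and AMP. At 24 h it was at 40.7 and 38.8 CPM with vehicle, 37.2 and 36.9 with ATP, 26.1 and 24.3 with ENPP1+ATP and 20.7 and 22.8 with AMP. Both of the latter groups were well below the rest. It fell by 0.66 with ENPP1+ATP (SE 0.069, adjusted p = 1.7e-08) and fell by 0.87 with AMP (SE 0.069, adjusted p = 1.07e-10). Both calls held without any 1 library, and the change with ATP was -0.10 (adjusted p = 0.43).

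At 48 h Il1r1 was at 39.4 and 37.8 CPM with vehicle, 45.4 and 44.5 with ATP, 31.9 and 34.4 with ENPP1+ATP and 33.5 and 30.6 with AMP. ATP libraries lay above vehicle and the others below. It fell by 0.22 with ENPP1+ATP (adjusted p = 0.0109) and fell by 0.27 with AMP (adjusted p = 0.00245). The first was lost without ENPP1+ATP replicate 1 (-0.16, adjusted p = 0.12) or vehicle replicate 1 (-0.19, adjusted p = 0.11) and the second without AMP replicate 2 (-0.20, adjusted p = 0.065). The rise with ATP was 0.22 (adjusted p = 0.043) and was lost without each of its 4 libraries in turn, with adjusted p of 0.29 and 0.14 without ATP replicates 1 and 2 and 0.13 and 0.31 without vehicle replicates 1 and 2, and without the filter on low counts (0.070) or with the 48 h libraries alone (0.066).

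Il1rn and Il1rl1 were near the limit of detection in CFs. Il1rn had 15 and 12 counts with vehicle and 4 and 12 with ENPP1+ATP at 24 h, then 16 and 12 with vehicle, 1 and 1 with ENPP1+ATP, 0 and 13 with AMP and 21 and 7 with ATP at 48 h. The ENPP1+ATP libraries at 48 h were below vehicle (log2 fold change -3.33, SE 1.195, adjusted p = 0.0256), and this call was lost without each of the 4 libraries in turn, with adjusted p of 0.11 and 0.086 without ENPP1+ATP replicates 1 and 2 and 0.088 and 0.056 without vehicle replicates 1 and 2. Il1rl1 had 27 and 19 counts with vehicle, 14 and 10 with ATP, 5 and 5 with ENPP1+ATP and 8 and 2 with AMP at 48 h. It fell by 1.90 with AMP (SE 0.78, adjusted p = 0.0495) but not past the threshold with ENPP1+ATP (-1.82, adjusted p = 0.0595). Without 1 library the AMP value ran from -3.23 to -1.20. The AMP call was lost without AMP replicate 2 (-1.20, adjusted p = 0.33), vehicle replicate 1 (adjusted p = 0.19) or vehicle replicate 2 (adjusted p = 0.098), and in DESeq2 (adjusted p = 0.059). The inflammatory ligands had almost no reads, with 1 Il1b count in all 20 libraries and 0 to 16 Tnf counts per library.

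Counted over the 8 tested members, 5 passed with ENPP1+ATP at 24 h, where 49.1% of all genes passed, and 3 with AMP, where 52.8% did. At 48 h 5 passed with ENPP1+ATP (45.2% of all genes) and 5 with AMP (44%). With ATP 4 passed at 24 h (11.1% of all genes, 4.77% higher and 6.32% lower) and 5 at 48 h (7.83% of all genes, 5.35% higher and 2.48% lower). With ENPP1+ATP and AMP so large a share of all genes passed that these counts are no result about the members. With ATP the 4 and 5 members that passed were all higher. Leaving out 1 library in turn left 1 to 3 members at 24 h, with 920 to 1205 of all genes passing where 1983 did with every library, and 3 to 4 members at 48 h, with 646 to 929 of all genes against 1400. All comparisons with vehicle at 1 time share the 2 vehicle libraries.

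Set directly against ATP, ENPP1+ATP differed in 4 tested members at 24 h (43.9% of all genes, 21.8% higher and 22.1% lower) and 7 at 48 h (39.5%, 18.2% higher and 21.3% lower). The log2 difference was -0.97 at 24 h (adjusted p = 4.88e-06) and -1.19 at 48 h (adjusted p = 5.16e-07) for Il6. It was -0.56 (adjusted p = 4.96e-07) and -0.44 (adjusted p = 1.13e-05) for Il1r1 and -0.59 (adjusted p = 0.0192) and -1.06 (adjusted p = 0.000225) for Il33. Lif was higher by 0.48 (adjusted p = 0.00626) and 0.88 (adjusted p = 1.9e-05). Csf1 passed at 48 h (0.38, adjusted p = 1.9e-06, against 0.03 without passing at 24 h), as did Il11 (-3.10, adjusted p = 0.00378) and Il1rn (-3.48, adjusted p = 0.0217). At 24 h the Il33 difference was lost without ATP replicate 2 (adjusted p = 0.13) or ENPP1+ATP replicate 1 (0.074) or 2 (0.087), and the Lif difference without ATP replicate 1 (0.058) or ENPP1+ATP replicate 2 (0.056). The Il11 difference at 48 h was -2.23 without ENPP1+ATP replicate 2 and -7.74 without replicate 1, passing in both. The Il1rn difference was lost without ATP replicate 1 (-2.72, adjusted p = 0.19), ENPP1+ATP replicate 1 (adjusted p = 0.10) or ENPP1+ATP replicate 2 (adjusted p = 0.077).

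**Figure D2:**
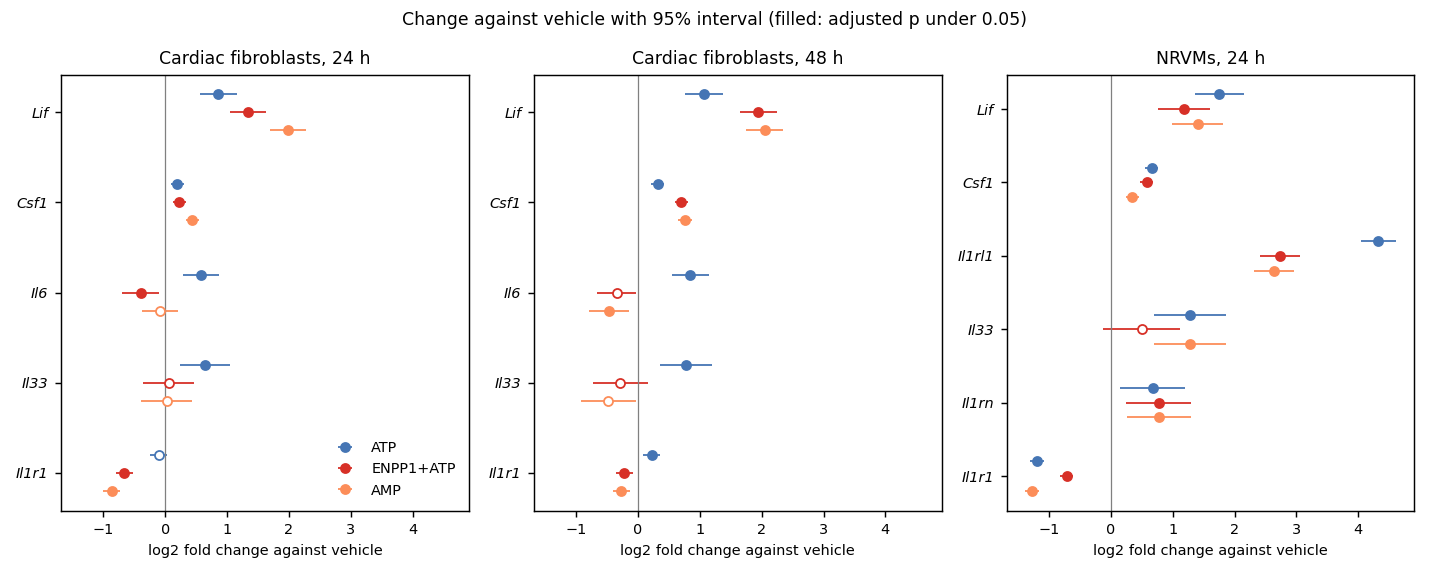
Log2 fold change against vehicle of the better measured members in CFs at 24 h and 48 h and in NRVMs at 24 h, with the 95% interval; colours are the media and filled points have an adjusted p under 0.05. Lif and Csf1 lie to the right of 0 in each panel, Il6 in CFs is right of 0 with ATP and left of it with ENPP1+ATP and AMP, and Il1rl1 in NRVMs reaches 4.33.

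No member was called in medium of NRVMs given ENPP1 without ATP. In edgeR no gene of 17879 was called against vehicle at either time (0% of all genes), and 249 and 743 genes had an unadjusted p under 0.05 at 24 and 48 h, with 0 called at either time in DESeq2. Lif was at 9.39 and 11.3 CPM with ENPP1 at 24 h and at 6.70 and 9.33 CPM at 48 h. Both pairs overlapped the vehicle pairs. At 48 h some members lay below both vehicle libraries without passing, such as Il1r1 at 34.0 and 32.7 CPM (-0.21). The share of all genes that lay so is not given here, so this is no result about the members.

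Between 24 and 48 h only Csf1 among the tested members changed in vehicle medium, falling by 0.21 (adjusted p = 0.0183), where 4.88% of all genes passed, 1.68% higher and 3.2% lower. The call was lost without each of the 4 libraries in turn, with adjusted p of 0.067 and 0.23 without the 24 h replicates 1 and 2 and 0.15 without either at 48 h. With ENPP1+ATP 4 members changed with time (40.7% of all genes, 19.5% higher and 21.2% lower), and with AMP 3 (43.1%, 22.3% higher and 20.8% lower). Il1r1 regained level, by 0.39 with ENPP1+ATP (adjusted p = 7.82e-05) and 0.55 with AMP (adjusted p = 6.09e-07). Il33 fell by 0.68 with ENPP1+ATP (adjusted p = 0.0132) and by 0.85 with AMP (adjusted p = 0.00227). Il6 fell by 0.80 with AMP (adjusted p = 0.000107), and Csf1 rose by 0.27 with ENPP1+ATP (adjusted p = 0.000184). Lif rose by 0.35 with ENPP1+ATP (adjusted p = 0.0402), which was lost without each of the 4 libraries in turn (adjusted p of 0.19, 0.089, 0.084 and 0.18), and the Il33 fall with ENPP1+ATP was lost without 24 h replicate 1 (adjusted p = 0.058) or 48 h replicate 2 (adjusted p = 0.12).

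The effect of a medium against vehicle was compared between the times in the same model. For ENPP1+ATP 3 members differed (30% of all genes) and for AMP 2 (31.7%). The Csf1 effect was larger at 48 h by 0.47 with ENPP1+ATP (SE 0.073, adjusted p = 1.91e-05) and 0.32 with AMP (SE 0.073, adjusted p = 0.0014). The Il1r1 fall was smaller at 48 h by 0.44 (SE 0.098, adjusted p = 0.00113) and 0.60 (SE 0.097, adjusted p = 3.26e-05). The Lif effect of ENPP1+ATP was larger at 48 h by 0.60 (SE 0.20, adjusted p = 0.0262), a call lost without 24 h ENPP1+ATP replicate 1 (adjusted p = 0.093), 24 h vehicle replicate 2 (0.10), 48 h ENPP1+ATP replicate 1 (0.050) or 2 (0.092) or 48 h vehicle replicate 1 (0.38, adjusted p = 0.19).

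Other genes of these pathways were counted in 5 lists that leave the members out. With ENPP1+ATP at 24 h 9 of 18 tested genes of the IL-1 and IL-33 receptor pathway passed (7 higher, 2 lower; median log2 fold change 0.24), 12 of 18 of the gp130 pathway (4 higher, 8 lower; -0.23), 11 of 18 of the TNF receptor pathway (5 higher, 6 lower; -0.02), 4 of 7 of the colony-stimulating factor pathway (2 higher, 2 lower; 0.13) and 18 of 20 NF-kB and STAT3 response genes (11 higher, 7 lower; 0.24), where the median of all genes was -0.00. With ENPP1+ATP at 48 h the counts were 11, 10, 15, 4 and 13. With AMP they were 11, 14, 11, 5 and 17 at 24 h and 9, 12, 12, 4 and 12 at 48 h. With ATP they were 3, 6, 3, 3 and 8 at 24 h, where 2 gp130, 1 TNF receptor and 1 colony-stimulating factor gene were lower, and 5, 5, 3, 2 and 12 at 48 h, all higher. These counts stand beside 49.1% and 45.2% of all genes called with ENPP1+ATP, 52.8% and 44% with AMP and 11.1% and 7.83% with ATP at 24 and 48 h.

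Csf1r, the M-CSF receptor and itself a macrophage marker, rose by 2.78 with ENPP1+ATP and 3.35 with AMP at 24 h and by 3.21 and 3.10 at 48 h. Il34, which encodes the other ligand of that receptor, rose by 0.84, 0.58, 1.04 and 1.26 in the same order. In the gp130 family the receptor subunits Il6ra (0.45, 0.55, 0.76 and 0.82) and Osmr (0.30, 0.50, 0.65 and 0.57) rose. Lifr, the LIF receptor, fell by 0.81, 1.00, 0.70 and 0.72, and Il11ra1, the IL-11 receptor, fell by 0.60, 0.97, 1.12 and 0.80. Among response genes the adhesion molecule Icam1 rose by 2.86, 3.76, 2.21 and 1.84 and the iron-binding Lcn2 by 2.19, 3.12, 1.70 and 1.61, whereas Cebpd, a transcription factor induced by IL-6, fell by 0.93, 0.84, 0.69 and 0.60. Each of these changes passed, with adjusted p of 0.00582 or less. Some larger changes had wide errors. In the TNF receptor list Traf1 rose by 2.45, 3.61, 3.81 and 3.73 (SE 0.94, 0.90, 1.31 and 1.31), with adjusted p of 0.0338 or less. With AMP at 24 h Csf2 rose by 4.31 (SE 0.89) and Nlrp3 by 3.65 (SE 0.97). Not all of the largest changes are named here.

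The genes whose 10 group means in CFs were most like those of each member were found by Pearson's r over log2 CPM among about 10881 genes, as a description without a test. Lif was most like Slc35e4 (r = 0.993) and Wnt5a (0.991), Csf1 like Tmem5 (0.991) and Lpin3 (0.989), Il1r1 like Ldah (0.979) and Pde1a (0.976), and Il6 like Ifi206 (0.981) and Gm2619 (0.981). Il33 was most like Szrd1 (0.972) and Irf7 (0.929). For the members with few reads the best values were 0.955 for Il1rn with Tmem14c and 0.953 with Raly, 0.95 and 0.899 for Il1rl1 with Snu13 and Borcs5, and 0.94 and 0.919 for Il11 with St7 and Klhl25. Each mean rests on 2 libraries, and the member and the genes set beside it were read in the same libraries.

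In NRVMs the receptor of IL-33 showed the largest change among the 6 tested members. Il1rl1 was at 2.34, 1.72 and 2.74 CPM with vehicle, 42.1, 44.4 and 49.6 with ATP, 14.9, 14.4 and 15.9 with ENPP1+ATP and 13.4, 13.5 and 15.4 with AMP. The 3 nucleotide groups lay above vehicle, ATP farthest. Il1rl1 rose 20.1-fold with ATP (log2 fold change 4.33, SE 0.14, adjusted p = 2.9e-27), 6.67-fold with ENPP1+ATP (2.74, adjusted p = 1.19e-18) and 6.23-fold with AMP (2.64, adjusted p = 5.68e-18). It was 3.01-fold lower with ENPP1+ATP than with ATP (-1.59, SE 0.10, adjusted p = 4.83e-16). Counts per gene do not separate the membrane and soluble forms of the receptor. Markers of other cells moved beside this and the other NRVM changes. The 7 endothelial cell markers in the table summed to 21.6 to 27.0 CPM with vehicle, 55.3 to 76.7 with ATP, 38.6 to 43.4 with ENPP1+ATP and 36.8 to 92.1 with AMP, with Cdh5 at 5.10 to 6.39, 15.2 to 25.9, 8.27 to 9.23 and 6.78 to 30.6 CPM. The 4 monocyte markers in the table summed to 245 to 279 CPM with vehicle, 89.1 to 114 with ATP, 88.8 to 97.0 with ENPP1+ATP and 79.3 to 117 with AMP. Their part in the member values was not tested.

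Its ligand Il33 was at 0.963, 1.65 and 1.29 CPM with vehicle, 3.21, 3.15 and 3.15 with ATP, 1.06, 1.92 and 2.52 with ENPP1+ATP and 3.29, 3.37 and 2.80 with AMP. Libraries with ATP and AMP were above vehicle, and those with ENPP1+ATP overlapped it. Il33 rose by 1.28 with ATP (SE 0.29, adjusted p = 0.000176) and 1.27 with AMP (adjusted p = 0.000218), and its change with ENPP1+ATP was 0.50 (adjusted p = 0.171), which passed without ENPP1+ATP replicate 1 (0.76, adjusted p = 0.042). The difference between ENPP1+ATP and ATP was -0.78 (adjusted p = 0.0247) and was lost in 5 of 6 fits that left out 1 library, without ATP replicate 1, 2 or 3 (adjusted p = 0.056, 0.054 and 0.060) or ENPP1+ATP replicate 1 or 2 (0.20 and 0.057).

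Il1r1 fell in NRVMs in all 3 nucleotide groups. It was at 155, 150 and 167 CPM with vehicle, 66.0, 67.9 and 71.9 with ATP, 88.3, 94.2 and 104 with ENPP1+ATP and 66.3, 61.2 and 67.5 with AMP. Every nucleotide library was below the lowest vehicle library. It fell by 1.1955 with ATP (SE 0.055, adjusted p = 4.15e-21), fell by 0.72 with ENPP1+ATP (adjusted p = 1.6e-14) and fell by 1.27 with AMP (adjusted p = 1.2e-21), and ENPP1+ATP was above ATP by 0.48 (adjusted p = 1.24e-08). The antagonist Il1rn was at 2.48, 1.72 and 1.90 CPM with vehicle, 2.75, 3.21 and 3.80 with ATP, 2.96, 2.94 and 4.52 with ENPP1+ATP and 3.69, 3.30 and 3.51 with AMP. It rose by 0.67 (SE 0.26, adjusted p = 0.0241), 0.77 (adjusted p = 0.0106) and 0.78 (adjusted p = 0.00968). These 3 calls were lost without vehicle replicate 2 (adjusted p = 0.10, 0.057 and 0.053), the ATP call also without ATP replicate 3 (0.11) or vehicle replicate 3 (0.068), and the ENPP1+ATP call without ENPP1+ATP replicate 3 (0.12).

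Lif in NRVMs was at 3.16, 2.89 and 3.12 CPM with vehicle, 10.3, 10.8 and 9.84 with ATP, 8.24, 6.90 and 5.69 with ENPP1+ATP and 8.95, 7.86 and 7.50 with AMP. All nucleotide libraries lay above all vehicle libraries. The rises were 3.37-fold with ATP (adjusted p = 2.18e-09), 2.26-fold with ENPP1+ATP (adjusted p = 1.08e-05) and 1.41 on the log2 scale with AMP (adjusted p = 3.97e-07). Here ENPP1+ATP lay below ATP (-0.58, adjusted p = 0.0109), a call lost without ENPP1+ATP replicate 3 (-0.45, adjusted p = 0.080). Csf1 was at 76.6, 77.0 and 78.4 CPM with vehicle, 113, 127 and 126 with ATP, 122, 120 and 105 with ENPP1+ATP and 99.8, 98.0 and 96.6 with AMP. It rose by 0.66 (adjusted p = 1.25e-14), 0.58 (adjusted p = 9.46e-13) and 0.34 (adjusted p = 4.67e-07) without overlap with vehicle, and ENPP1+ATP and ATP differed by -0.08 without passing.

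**Figure D3:**
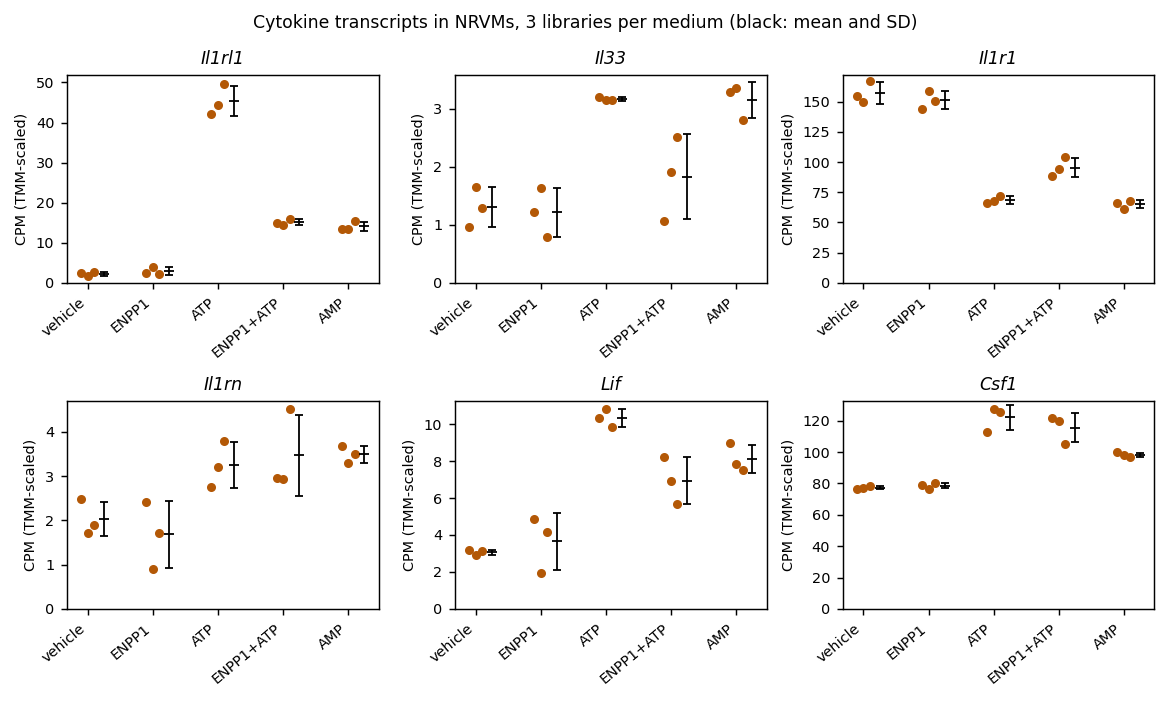
Level of the 6 tested members in NRVMs by treatment, in CPM scaled by TMM on linear axes from 0; points are the 3 libraries of each treatment, with mean and SD in black. Il1rl1 with ATP lies between 42.1 and 49.6 CPM, above every library of the other treatments.

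Of the 6 tested members 6 passed with ATP (59.9% of all genes), 5 with ENPP1+ATP (56%, 28.6% higher and 27.4% lower), 6 with AMP (57.2%) and 4 in ENPP1+ATP against ATP (27.5%). With ENPP1 alone no gene of 13461 was called in edgeR (0%), 693 had an unadjusted p under 0.05 and DESeq2 called 0. Il6 had 0 counts in all vehicle and ENPP1 libraries, 1, 4 and 8 with ATP, 1, 0 and 3 with ENPP1+ATP and 1, 0 and 3 with AMP. Il11 had 8, 4 and 11 counts with vehicle, 4, 2 and 1 with ATP, 0, 7 and 2 with ENPP1+ATP and 0 in each AMP library. Il1b had 10 counts in ATP replicate 2 and at most 1 elsewhere.

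In NRVMs the pathway lists had 10 of 17 (IL-1 and IL-33), 8 of 17 (gp130), 11 of 18 (TNF), 2 of 7 (colony-stimulating factors) and 10 of 19 genes (NF-kB and STAT3 responses) past the threshold with ENPP1+ATP, where 56% of all genes passed, and 9, 9, 10, 2 and 11 with ATP, where 59.9% did. Among those named by size, the decoy receptor Il1r2 rose by 2.24 with ENPP1+ATP, 1.48 with AMP and 2.05 with ATP. In CFs at 48 h its log2 fold change was -3.17 with ENPP1+ATP (SE 1.17, adjusted p = 0.029) and -3.24 with AMP (SE 1.16, adjusted p = 0.026). These CF values have wide errors, and whether their calls hold without 1 library is not given here. In NRVMs Csf1r rose by 2.78 with ENPP1+ATP, 2.95 with AMP and 3.69 with ATP. In the same order Il11ra1, which fell in CFs, rose here by 0.30, 0.23 and 0.64, and Lifr did not pass (-0.18, -0.15 and -0.14). Lcn2 rose by 1.47, 1.35 and 1.32 and Cebpd fell by 0.99, 0.71 and 0.68. The macrophage sum given above moved in the same direction as Csf1r, and its part was not tested.

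In the injured hearts the control library kept 5236 of 5347 barcodes and the ENPP1CKO library 7252 of 7460, with medians of 3701 and 3365 counts per cell. Between the libraries 68 barcode sequences were shared, 62 of them after filters. Cells were grouped without use of the members into 18 clusters, of which 16 took a class name from markers. Fibroblast-like cells numbered 1857 in the control and 3720 in the ENPP1CKO library and macrophage-like cells 2468 and 2050. Among the macrophage-like cells, the cluster numbered 9 held 818 control cells and 53 ENPP1CKO cells, and the fibroblast-like cluster with the most cells was led by Sfrp2 in the control library (897 of 1857 cells) and by Aspn in the ENPP1CKO library (1725 of 3720 cells). Enpp1 itself was at 129 CPM in control and 28.8 CPM in ENPP1CKO fibroblast-like cells. Whether its tags lie outside the deleted part is not known. With 1 library per genotype no test was possible, intervals are 95% and cover counting error only, and members were called past 2-fold only with 20 counts or more.

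Most Il1b counts were found in myeloid cells. Of its counts, 68.4% in the control and 91.5% in the ENPP1CKO library lay in macrophage-like cells. There it was at 948 CPM (interval 928 to 969) in the control and 1927 CPM (1894 to 1959) in the ENPP1CKO library, a ratio of 2.03 (1.98 to 2.09). Without cluster 9 the levels were 1041 and 1960 CPM, a ratio of 1.88. By cluster it went from 1958 to 2997 CPM in the Cd74-led and from 583 to 1511 CPM in the Ccl4-led macrophages, and from 579 to 197 CPM in cluster 9.

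In the other myeloid classes the order was the opposite. Il1b was at 4023 CPM in control and 2133 CPM in ENPP1CKO dendritic cell-like cells (ratio 0.530, 0.487 to 0.578), and at 4784 and 1675 CPM in an unnamed cluster led by S100a9 (0.350, 0.290 to 0.420), which carries monocyte and neutrophil markers alike and held 193 control and 42 ENPP1CKO cells. Over all cells the ratio was 1.05. Fibroblast-like cells had 14.8 and 12.2 CPM of Il1b, which fell to 0 when a macrophage-like profile scaled by C1q genes was subtracted.

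Il1rn, like Il1b, had most of its counts in macrophage-like cells, but its level was lower in dendritic cell-like than in macrophage-like cells, where that of Il1b was higher in both libraries. Macrophage-like cells held 86.4% of its counts in the control and 94.4% in the ENPP1CKO library, at 236 and 232 CPM (ratio 0.984, 0.921 to 1.05), a difference within counting error. It was at 643 and 536 CPM in the S100a9-led cluster and at 85.3 and 30.1 CPM in dendritic cell-like cells. In fibroblast-like cells it was at 2.99 and 0.970 CPM from 31 and 16 counts.

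Tnf was likewise found in macrophage-like cells, with 91.6% and 90.8% of its counts. Its level there was 46.5 CPM (394 counts) in the control and 38.7 CPM (275 counts) in the ENPP1CKO library, a ratio of 0.833 (0.711 to 0.974), and without cluster 9 the ratio was 1.14 (0.954 to 1.37). In the control that cluster held 164 of the 394 counts at 96.2 CPM. Fibroblast-like cells had 8 and 7 Tnf counts.

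In the control library cluster 9 also held most of the macrophage counts of the gp130 ligands. Il6 in macrophage-like cells was at 11.9 CPM (101 counts) and 2.39 CPM (17 counts), with 71 of the 101 control counts in that cluster, and its ratio of 0.201 (0.113 to 0.338) became 0.421 (0.202 to 0.833) without it. Lif was at 5.54 CPM (47 counts) and 1.41 CPM (10 counts), a ratio of 0.254 (0.114 to 0.509), with 43 of the 47 control counts in the cluster, and without it the ratio was 1.70 (0.433 to 7.93) from 4 and 7 counts. The Il6 counts lay in 1.99% of control macrophage-like cells, beside 1.40% of control T or NK cell-like cells, with median depths of 3257.5 and 1648 counts. Il6 was at 92.9 CPM in control and 81.9 CPM in ENPP1CKO fibroblast-like cells. The share of their transcripts in macrophage-like cells was not estimated.

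The stromal members were found mostly in fibroblast-like cells, with levels that were close between the libraries. Il33 was at 69.8 CPM (724 counts) in the control and 65.1 CPM (1074 counts) in the ENPP1CKO library (ratio 0.933, 0.848 to 1.03), Il1r1 at 56.1 and 60.01 CPM (1.07, 0.965 to 1.19) and Csf1 at 42.1 and 43.5 CPM (1.03, 0.916 to 1.17). These intervals include 1. Il6 was at 92.9 and 81.9 CPM, a ratio of 0.881 (0.811 to 0.958). Il11 was at 5.49 and 4.42 CPM (0.805, 0.562 to 1.16) and this class held 98.3% and 90.1% of its counts.

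Within the fibroblast-like cells the cluster led by Clec3b, which also has Pi16 among its leading genes, stood highest in these 4 genes, except for Csf1 in the ENPP1CKO library, where the Ifit3-led cluster was at 64.3 CPM. Il6 was at 295 CPM there in the control and 218 CPM in the ENPP1CKO library, Il33 at 210 and 163 CPM, Il1r1 at 118 and 128 CPM and Csf1 at 96.0 and 56.1 CPM. The same 4 genes were at 92.9, 69.8, 56.1 and 42.1 CPM in the control class as a whole. The cluster held 186 control and 572 ENPP1CKO cells.

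**Figure D4:**
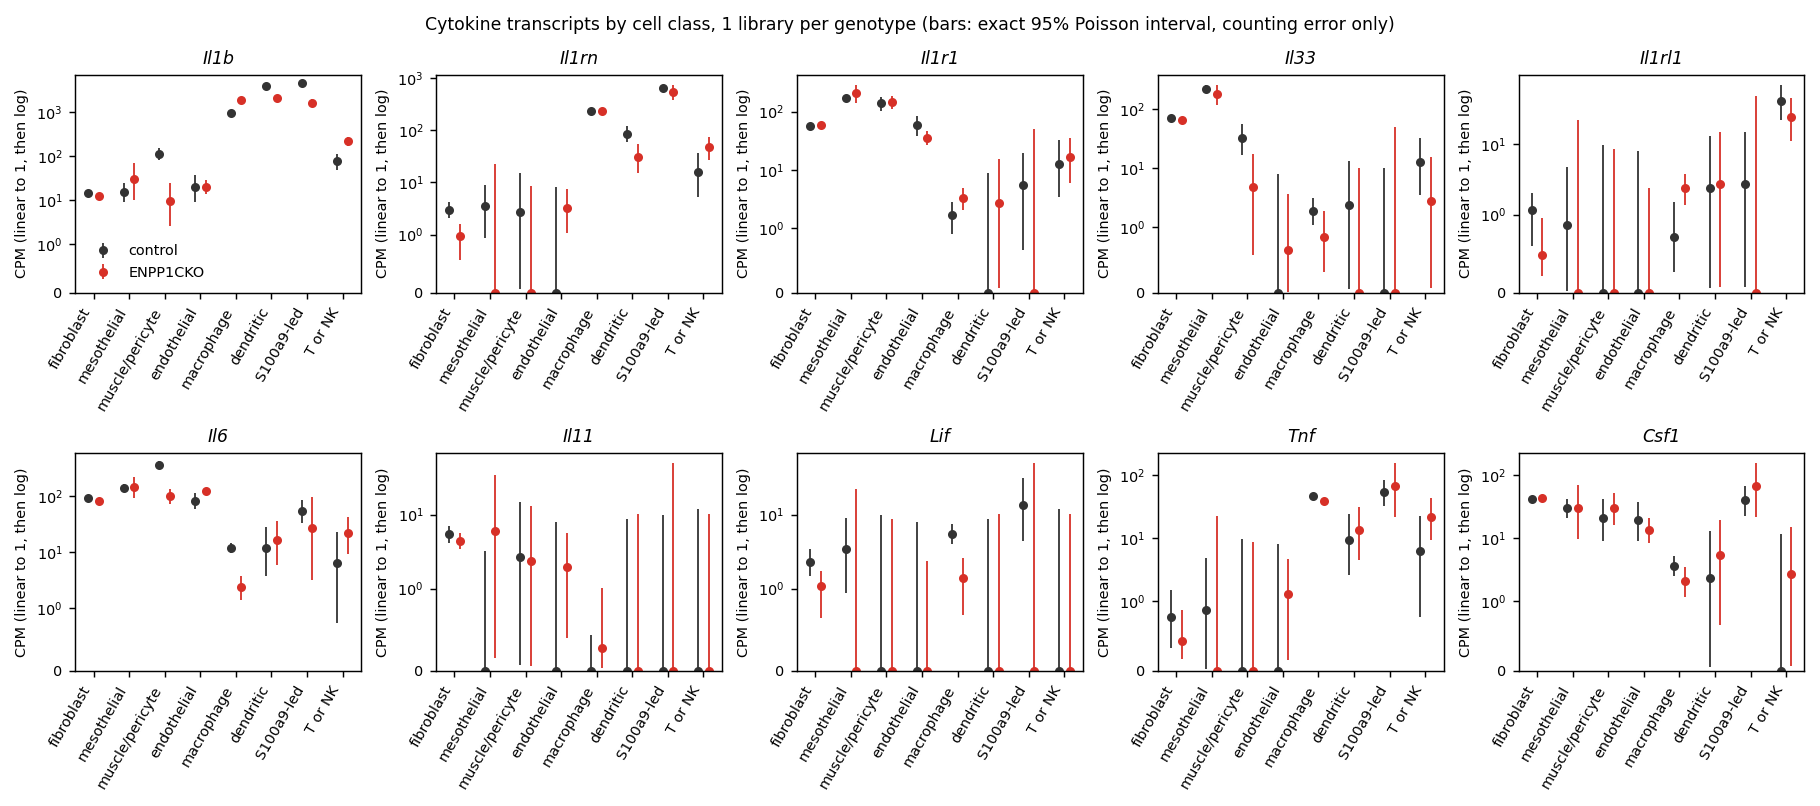
Level of each member by cell class in the control (black) and ENPP1CKO (red) libraries, as CPM of the class sum on an axis that is linear to 1 and logarithmic above; bars are exact 95% Poisson intervals for counting error. Among the classes shown and in the control library, Il1b, Il1rn and Tnf are highest in myeloid classes, and Il33, Il1r1 and Il11 in stromal ones. Csf1 in the control library was at 42.1 CPM in fibroblast-like cells and 40.7 CPM (15 counts) in the S100a9-led cluster. In the ENPP1CKO library these levels were 43.5 and 67.0 CPM (5 counts).

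Lif in fibroblast-like cells was at 2.31 CPM (24 counts) and 1.09 CPM (18 counts), a ratio of 0.472 (0.241 to 0.906). Together with Il1rn (0.325) and Il1rl1 (0.419, 0.149 to 1.12) it was 1 of 3 members past 2-fold lower in this class, where 2.95% of genes were, and no member was past 2-fold higher (2.45% of genes). The count was 1 after the macrophage-like profile was subtracted, 1.67% of control and 0.876% of ENPP1CKO counts in this class, which brought the control level of Il1rn to 0, and it was 0 after thinning to 1000 counts per cell. The Il1rn level in fibroblast-like cells is not read as a difference, and its source was not tested. In macrophage-like cells Il6, Lif and Il33 were past 2-fold lower (4.75% of genes) and Il1b and Il1rl1 past 2-fold higher (1.34% of genes). The Il1rl1 ratio there rests on 23 counts. Il33 in macrophage-like cells was at 1.89 and 0.844 CPM from 16 and 6 counts, beside 69.8 CPM in fibroblast-like and 218 CPM in mesothelial cell-like control cells. The share of stromal transcripts in macrophage-like cells was not estimated, and the Il33 values there are not read as a difference.

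Other stromal classes had the same genes. Mesothelial cell-like cells, which line the heart's surface, had Il33 at 218 and 176 CPM, Il1r1 at 169 and 206 CPM and Il6 at 140 and 146 CPM. They held 24.9% of Il33 counts in the control but 2.6% in the ENPP1CKO library, which had 26 such cells against 116. Smooth muscle cell or pericyte-like cells had Il6 at 357 CPM from 134 counts in the control, 31 of them in 1 cell, and at 101 CPM from 43 counts in the ENPP1CKO library. Endothelial cell-like cells had Il6 at 82.5 and 121 CPM (ratio 1.46, 1.03 to 2.13). T or NK cell-like cells had the highest Il1rl1 level, 41.3 CPM from 13 counts and 24.6 CPM from 9.

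**Figure D5:**
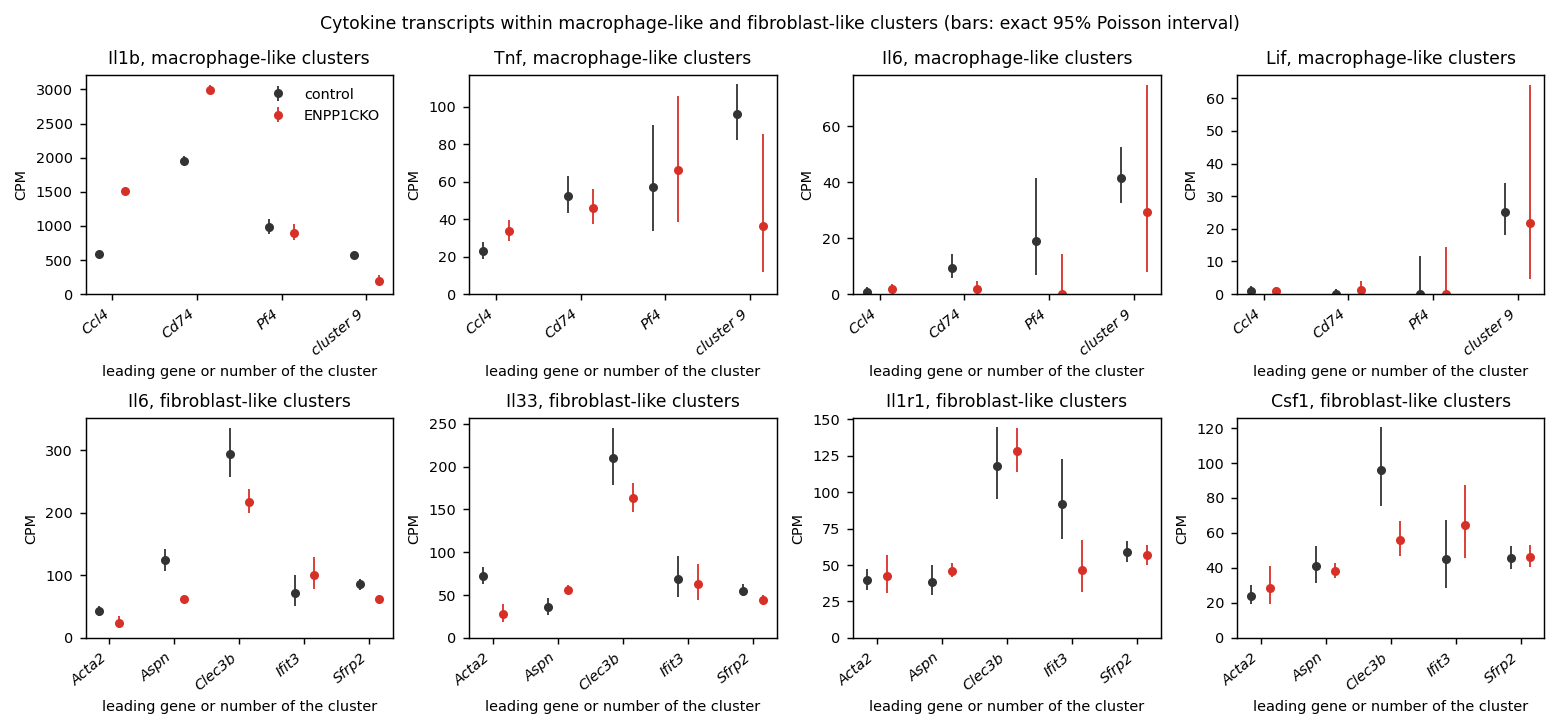
Level of 4 members in the macrophage-like clusters (upper row) and of 4 in the fibroblast-like clusters (lower row), named by leading gene or, for cluster 9, by number, in CPM on linear axes from 0 for the control (black) and ENPP1CKO (red) libraries with exact 95% Poisson intervals. Il1b is higher in the ENPP1CKO library in the Cd74-led and Ccl4-led clusters, and the fibroblast members peak in the Clec3b-led cluster, except Csf1 in the ENPP1CKO library.

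Of the pathway genes outside the members, 1 of 17 in the IL-1 and IL-33 list, 1 of 18 in the gp130 list, 1 of 18 in the TNF list and 1 of 19 NF-kB and STAT3 response genes were past 2-fold lower in fibroblast-like cells, where 2.95% of all genes were, and 1 of 8 in the colony-stimulating factor list was past 2-fold higher, where 2.45% were. The acute-phase gene Saa3 was at 37.8 CPM in the control and 2.61 CPM in the ENPP1CKO library, Irak2, a kinase of IL-1 signalling, at 6.55 and 2.97 CPM, and Il34 at 5.88 and 12.4 CPM. In macrophage-like cells none of 20 genes in the IL-1 and IL-33 list, 16 in the gp130 list, 18 in the TNF list and 8 in the colony-stimulating factor list was past 2-fold. Of the 19 NF-kB and STAT3 response genes 2 were past 2-fold lower there, where 4.75% of all genes were, and 1 was higher, where 1.34% were. Saa3 in these cells was at 892 and 34.1 CPM and Cebpb, a transcription factor of myeloid cells, at 286 and 72.6 CPM. Vcam1, an adhesion molecule, was at 17.6 and 42.2 CPM, and Csf1r at 356 and 340 CPM. Saa3 is also a leading gene of cluster 9 with its 818 control and 53 ENPP1CKO cells, and the part of that cluster in these values was not tested.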

How the data were processed

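RNA was sequenced from 20 CF libraries, 15 NRVM libraries and 2 single-cell libraries, 37 samples in all. The values the authors deposited are raw counts, of reads for each gene in the bulk tables and of unique molecules in the single-cell ones. The submitters' processing notes name STAR 2.5.3a, Cell Ranger and the builds mm10 and rn6, without saying which served which table, and a statistical method for these counts is not given in the sources used here. The columns not used numbered 0.

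Groups were taken from the labels. Bulk counts went into edgeR 4.0.16 (R 4.3.3), 1 model per experiment (filterByExpr, TMM scaling, robust quasi-likelihood test), which left 17879 genes in CFs and 13461 in NRVMs. P-values were adjusted by Benjamini-Hochberg over all genes of a comparison, with a threshold of 0.05, and the SE of a fold change was derived from its test statistic. Biological variation between libraries was 0.0590 in CFs and 0.0499 in NRVMs as a coefficient. Replicate pairs differed beyond sampling noise (chi-square per degree of freedom 2.46 to 36.5). Alternatives were DESeq2 1.42.0, its size factors, no filter, a replicate block, libraries of 1 time and leaving out each library. The code was tested on simulated data.

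Single cells were handled with scanpy 1.11.5 (Python 3.11.15). Barcodes with 200 genes or more and at most 20% mitochondrial counts were kept, and Scrublet doublets (1.38% of control and 2.08% of ENPP1CKO barcodes) were removed. Leiden clustering (resolution 0.5, 15 neighbours, 30 components) used 2000 variable genes without the members. A class name needed 3 markers in at least 10% of cells, 2-fold above the median cluster. Of the gene IDs 30934 matched a symbol. Counts were summed per class and library, with exact Poisson and conditional binomial intervals. Counts of 0 allow up to 3 counts.

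Named genes are the members, the 2 genes most like each member, and genes that check a label or class. Others are some of the largest changes in the pathway lists, taken by a fixed rule and then followed in further comparisons. The members and lists were chosen with earlier results of these data known. Promoter sequences come from RefSeq. The leading gene of 1 cluster is not reported here.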

Additional observations from a re-analysis of the deposited data

Results flagged for a closer look

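The effect of a conditioning medium against vehicle differed between 24 and 48 h in CFs by the test of that difference for 3 members, each given as the 48 h effect minus the 24 h effect on the log2 scale. For Csf1, higher at both times, the difference was 0.47 with ENPP1+ATP and 0.32 with AMP. For Il1r1, lower at both times, it was 0.44 with ENPP1+ATP and 0.60 with AMP. For Lif, higher at both times, it was 0.60 with ENPP1+ATP. Of all genes 30% differed in this way with ENPP1+ATP and 31.7% with AMP. At 48 h the fibroblast marker sum in CFs was 3508 to 3734 CPM with ENPP1+ATP and 3719 to 3968 CPM with AMP, against 3374 to 3483 and 2642 to 2852 CPM at 24 h, and the part of this shift was not tested.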

How the results depend on the processing

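Precision of the CF values is limited by 2 libraries per group, and of Il11, Il1rn and Il1rl1 by few reads. Of the member fold changes recomputed without 1 library 312 kept direction and call, 68 lost the call, 2 gained it and 2 turned direction, and under other settings 357 kept both, 6 lost the call, 1 gained it and 1 turned. Of single-cell values 418 kept within counting error, 47 moved beyond it and 1 that was past 2-fold turned. The turned values were the Il33 change with AMP at 24 h in CFs, which was -0.0163 without the filter on low counts and -0.00547 to 0.0601 without 1 library, and the Lif log2 ratio in macrophage-like cells, which was 0.77 without cluster 9 of the macrophage-like cells. Among ratios short of 2-fold, whose turns were not counted, that of Tnf there was -0.26 with and 0.19 without that cluster. The cause was not tested.

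Without the filter on low counts, ENPP1 alone against vehicle gave 26 genes at 24 h and 180 at 48 h in CFs and 14 in NRVMs. Without 1 library it gave 0 to 129 genes at 48 h, the highest without ENPP1 replicate 2. Member counts without 1 library ranged from 3 to 4 with ENPP1+ATP and from 1 to 3 with ATP at 24 h, from 3 to 5 with ENPP1+ATP, from 3 to 5 with AMP and from 3 to 4 with ATP at 48 h, from 2 to 4 for ENPP1+ATP against ATP at 24 h, from 3 to 5 for AMP between the times, and were 0 for vehicle between the times. Counts over all genes without 1 library ranged from 920 to 1205 (1983 with all) for ATP at 24 h, from 646 to 929 (1400 with all) for ATP at 48 h and from 235 to 440 (873 with all) for vehicle between the times. With the 48 h libraries alone 3 members passed with ATP. Members past 2-fold lower in fibroblast-like cells numbered 0 after thinning to 1000 counts per cell and 1 after subtraction of the macrophage-like profile, and in macrophage-like cells 1 without cluster 9.

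Replicate numbers did not pair the libraries, with a median correlation of same-numbered deviations of 0.0125 in CFs (over 0.1 in 6 of 90 pairs) and 0.0143 in NRVMs (1 of 30). With a replicate block Il6 with ENPP1+ATP at 48 h passed (-0.35, adjusted p = 0.046) and Il1rl1 with AMP at 48 h did not (adjusted p = 0.052). With the block 6 members passed with ENPP1+ATP and 4 with AMP at 48 h.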
